A study of Mus musculus with 10 samples.

Results

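The constitutive proteasome is encoded here by 34 genes, of 27179 Entrez genes counted in whole-lung RNA from 10 mice. They were taken by name, although earlier results of these data were known when the list was chosen. The list holds 14 genes of the 20S core particle (Psma1 to Psma7 and Psmb1 to Psmb7) and 20 genes filed with the 19S regulatory particle (Psmc1 to Psmc6 and Psmd1 to Psmd14). All 34 were in the table, and all 34 passed the filter on low counts that left 15301 genes for testing. The EpithelialKO lungs came from 5 mice that carried floxed alleles of Ern1 on both chromosomes and Cre on a Shh allele (Shh Cre/+ with IRE1α fl/fl, mice 17, 18, 20, 21 and 22). The Flox lungs came from 5 mice with the same floxed alleles and wild-type Shh (Shh +/+ with IRE1α fl/fl, mice 2, 3, 4, 5 and 6). Ern1 encodes IRE1α, a kinase and ribonuclease of the endoplasmic reticulum that splices Xbp1 mRNA when unfolded proteins build up. Sex, age and batch are not among the labels used here. Because the Cre allele and the loss of Ern1 come together, their parts in a difference cannot be told apart.

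The proteasome degrades proteins that carry ubiquitin chains, including misfolded proteins that are pulled out of the endoplasmic reticulum. Its core particle is a barrel of stacked rings: outer rings of alpha subunits form the gate, and inner rings of beta subunits hold the proteolytic sites. The regulatory particle caps the barrel; its base unfolds substrates with a ring of ATPases, and its lid removes ubiquitin. Some of its genes, Psmd5, Psmd9 and Psmd10, encode chaperones that help assemble the base and leave before the complex is finished. In mammalian cells the transcription factor NRF1, encoded by Nfe2l1, raises proteasome genes together through antioxidant response elements when proteasome capacity is short.

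Promoters are shown for the gene with the lowest p-value and for 4 genes that hold that element, 2 catalytic and 2 regulatory, so matches are over-represented among those printed. In RefSeq's promoter table for GRCm38.p6, windows of 300 bases (250 before to 50 after the start) were found for 28 of the 34 genes, 11 core and 17 regulatory. Capitals mark a match to TGACNNNGC, the antioxidant response element core, searched on both strands. Psma5 had the lowest p-value of the 34 genes and no match (chr3:108256676-108256975 on the plus strand). Psmb5 (chr14:54617946-54618245 on the minus strand) and Psmb6 (chr11:70525107-70525406 on the plus strand) encode catalytic subunits. Psmc6 (chr14:45329574-45329873 on the plus strand) matched on the reverse strand, far from the start, and Psmd9 lies at chr5:123227940-123228239 on the plus strand.
Psma5: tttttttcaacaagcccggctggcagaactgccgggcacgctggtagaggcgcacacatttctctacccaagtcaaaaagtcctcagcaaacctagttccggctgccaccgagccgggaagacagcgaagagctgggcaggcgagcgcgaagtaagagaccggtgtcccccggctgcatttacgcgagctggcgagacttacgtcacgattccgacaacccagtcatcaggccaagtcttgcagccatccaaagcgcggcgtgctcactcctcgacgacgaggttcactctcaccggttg
Psmb5: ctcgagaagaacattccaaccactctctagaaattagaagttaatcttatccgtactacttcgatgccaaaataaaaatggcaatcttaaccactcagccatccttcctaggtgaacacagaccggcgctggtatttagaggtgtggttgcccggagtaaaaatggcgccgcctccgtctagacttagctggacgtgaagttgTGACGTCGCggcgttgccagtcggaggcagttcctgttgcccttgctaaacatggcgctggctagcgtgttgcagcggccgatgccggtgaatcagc
Psmb6: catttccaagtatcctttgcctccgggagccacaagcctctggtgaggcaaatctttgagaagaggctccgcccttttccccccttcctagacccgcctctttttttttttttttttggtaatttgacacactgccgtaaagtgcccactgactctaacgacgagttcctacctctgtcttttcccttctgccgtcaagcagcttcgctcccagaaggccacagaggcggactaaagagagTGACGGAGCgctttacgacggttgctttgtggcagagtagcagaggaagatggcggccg
Psmc6: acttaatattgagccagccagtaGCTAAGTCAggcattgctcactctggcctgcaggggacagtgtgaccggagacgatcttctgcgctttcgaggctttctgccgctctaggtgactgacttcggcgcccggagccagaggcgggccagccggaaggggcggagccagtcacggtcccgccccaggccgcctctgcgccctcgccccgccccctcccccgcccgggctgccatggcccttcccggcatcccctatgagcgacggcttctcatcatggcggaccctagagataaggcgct
Psmd9: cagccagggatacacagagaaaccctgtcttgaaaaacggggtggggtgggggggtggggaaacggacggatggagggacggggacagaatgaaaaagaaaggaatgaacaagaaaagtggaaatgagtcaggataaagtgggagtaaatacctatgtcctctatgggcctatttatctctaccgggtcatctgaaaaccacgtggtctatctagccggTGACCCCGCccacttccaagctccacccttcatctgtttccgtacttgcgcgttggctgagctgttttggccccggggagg

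The match began 47 bases before the start in Psmb5, 9 before in Psmb6, 31 before in Psmd9 and 227 before in Psmc6. Psmd12 was the only other gene of the 28 with a match, and Psma3, Psmb3 and Psmd5 had none. Those 5 were 17.9% of the 28 genes, against 13.99% of 27025 genes in the whole promoter table and 16.9% of 11745 tested genes in it. Shares are per gene, and a gene can have windows at different starts, as Psma6 and Psmc2 did. The box CCAAT, bound by NF-Y, occurred in 11 of the 28 (39.3%), against 41.1% of all genes in that table and 42.1% of the tested ones. Psma6 and Psmc2 were counted for it although only a single window of each held it. The sequence TGACGTG, the core of the element bound by XBP1, occurred in Psma1 alone (3.57%). It occurred in 2.22% of all genes in that table and 3.13% of the tested ones. The same letters can serve TGACGTG and TGACNNNGC at once. Matches are letters in a window and were not read as binding.

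Totals were 16234895 to 18870247 counts in EpithelialKO mice and 14983829 to 21224412 counts in Flox mice. Each of the 34 genes had between 462 and 4849 counts in every mouse. Levels are CPM, which are counts scaled to the TMM-adjusted library size, given in mouse order (17, 18, 20, 21, 22 and 2, 3, 4, 5, 6), with SD over n = 5 mice a group. Ern1 had 12.3, 15.5, 10.7, 21.8 and 26.1 CPM in EpithelialKO mice, against 20.1, 19.8, 15.6, 8.05 and 20.5 CPM in Flox mice. These groups overlapped, at a log2 fold change of 0.04 ± 0.27 (SE; adjusted p = 0.975, edgeR), so the whole-lung count did not separate the genotypes. Which exons are floxed is not given in the labels, so a count over the whole gene may not report the deletion and does not check the labels. As background, Cre from the Shh locus acts in the lung epithelium, and Ern1 was not measured by cell type here. Flox mice 4 and 6 had 215 and 247 CPM of Xist and 0 CPM of Y-linked Ddx3y, whereas the other 8 mice had at most 4.06 CPM of Xist and at least 71.9 CPM of Ddx3y. By these genes mice 4 and 6 read as female and the other 8 as male, although the labels do not give sex. Both female mice lay in the Flox group, so sex and genotype are partly mixed. Fold changes of the 34 genes are therefore also given without Flox mice 4 and 6. Marker sums and the other gene lists are given with all 10 mice only.

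Summed markers of endothelial cells and of fibroblasts did not overlap between the groups. Of 72 marker genes in 12 lists, 0 passed an adjusted p of 0.05 (edgeR). At an unadjusted p under 0.05 (edgeR), 11 of the 72 were higher and 17 lower in EpithelialKO. Over all 15301 genes tested, 5.87% were higher and 6.52% lower. With the DESeq2 Wald test 10 of the 72 passed the adjusted threshold, where 279 of the 15301 did. Summed markers of alveolar type 2 cells were 49653 to 61352 CPM in EpithelialKO and 41475 to 49725 CPM in Flox mice, with all 10 genes higher in mean. Ciliated cell markers summed to 706 to 981 CPM in EpithelialKO and 582 to 824 CPM in Flox mice (6 of 6 genes positive), and club cell markers to 35014 to 55005 CPM in EpithelialKO and 22132 to 47726 CPM in Flox mice (6 of 6 positive). Sftpc was most of the alveolar type 2 sum, averaging 39095 CPM in EpithelialKO and 32975 CPM in Flox mice. Scgb1a1 was most of the club sum, averaging 29188 CPM in EpithelialKO and 24557 CPM in Flox mice. The lowest club sums were those of Flox mice 4 and 6, at 26271.5 and 22131.8 CPM. Flox mice 2, 3 and 5 had 40691.4, 38695.8 and 47726.4 CPM, inside the EpithelialKO range. Endothelial markers ran the other way, at 1848 to 2379 CPM in EpithelialKO and 2452 to 3180 CPM in Flox mice (0 of 6 positive). The same held for fibroblast markers, at 761 to 852 CPM in EpithelialKO and 905 to 1371 CPM in Flox mice (1 of 6 positive), and for smooth muscle markers, at 171 to 315 CPM in EpithelialKO and 245 to 328 CPM in Flox mice (0 of 6 positive). Summed alveolar type 1, macrophage, lymphocyte, cardiomyocyte, fat and red cell markers overlapped between the groups. Among all these sums only the endothelial and fibroblast ones did not. Chil3 was most of the macrophage sum, and Tppp3 most of the ciliated sum. Of 6 macrophage genes 5 were positive, but Marco was lower in every EpithelialKO mouse than in any Flox mouse (log2 fold change -0.74 ± 0.14, adjusted p = 0.0598, edgeR). In whole lung, more cells of a type and more RNA per cell cannot be told apart, and the part of cell makeup in the values below was not tested.

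All 34 proteasome genes had a higher fitted level in EpithelialKO than in Flox lungs, but 0 of 34 passed an adjusted p of 0.05 (edgeR). With the DESeq2 Wald test 1 did, Psma5 (adjusted p = 0.00253), where 279 of all 15301 genes passed. With limma-voom 0 of 34 did, where 32 of all 15301 genes passed. The edgeR log2 fold changes of the 34 genes ran from 0.01 for Psmd13 to 0.40 for Psma5. Their median was 0.13, against a median of 0.00 over all 15301 genes. Core genes had a median of 0.17 and regulatory genes a median of 0.12. For comparison, 50.1% of all genes had a positive fold change, and 23.7% lay at or above the core median. Over all genes, 6 passed the adjusted threshold (0.0392%), 1 higher and 5 lower in EpithelialKO.

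At an unadjusted p under 0.05, 8 of the 34 genes were higher in EpithelialKO lungs and 0 were lower. They were the core genes Psma3, Psma5, Psmb1, Psmb2 and Psmb3 and the regulatory genes Psmc6, Psmd5 and Psmd9. The 95% interval included 0 for 9 of 14 core and 17 of 20 regulatory genes, and its upper bound reached at most 0.58 in the core and 0.59 in the regulatory particle. The same unadjusted p took 5.87% of all genes as higher and 6.52% as lower. All 5 EpithelialKO mice lay above all 5 Flox mice for Psma5 only, a separation that 1.63% of all genes showed. Proteasome genes share regulators and are measured in the same libraries, so their 34 directions are not 34 independent observations.

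Most values were smaller when transcript length and GC content were fitted together in each library. Core transcripts had a median length of 1162.5 bases and regulatory transcripts 1710.5 bases, against 2911 bases over all genes. With an offset per mouse fitted on transcript length and GC content, added after seeing the data and available for 14763 genes, the median was 0.04 for core genes and 0.06 for regulatory genes. Then 11 of 14 core genes and 12 of 20 regulatory genes were positive. Length and GC content were not fitted apart. Without Flox mice 4 and 6, the medians were 0.12 for core and 0.06 for regulatory genes, with 14 of 14 and 16 of 20 positive.

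**Figure D1:**
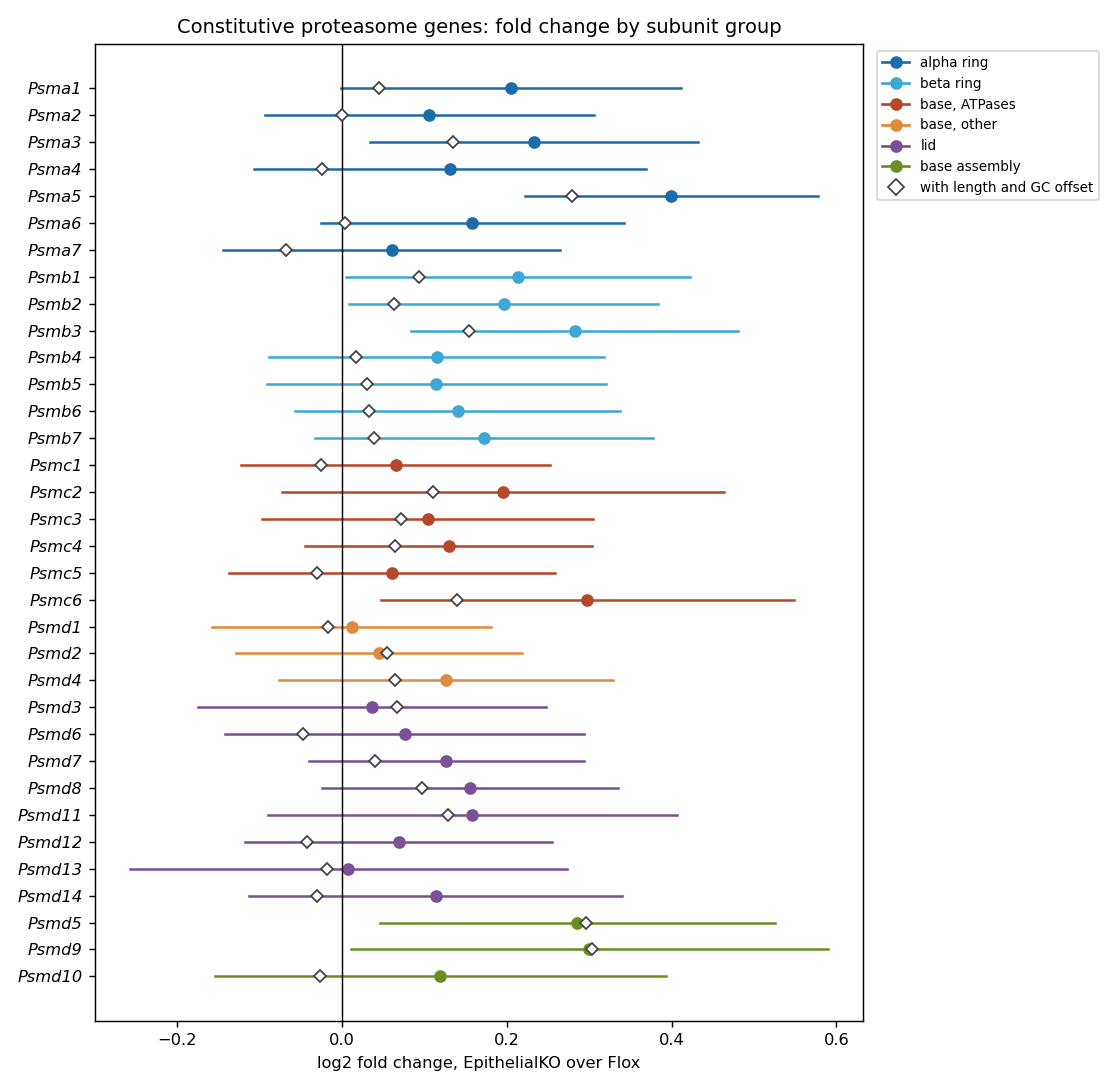
Log2 fold change of EpithelialKO over Flox for each of the 34 genes, with its 95% interval from edgeR, and the value after the offset on transcript length and GC content. All 34 fitted values lie above 0, 8 intervals exclude 0, and with the offset core values are lower, Psma5 included (0.28), while Psmd5 and Psmd9 stay at 0.30.

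Among the alpha subunits of the core, Psma5 stood apart in its size. Psma5 (Entrez 26442, chr3:108256926-108279952, GRCm38) had 75.2, 69.7, 73.8, 67.9 and 75.2 CPM in EpithelialKO mice, against 52.7, 52.1, 57.5, 55.3 and 56.7 CPM in Flox mice. The lowest EpithelialKO mouse was above the highest Flox mouse. Its mean was 72.4 ± 3.34 CPM in EpithelialKO and 54.9 ± 2.40 CPM in Flox mice, a fold of 1.32 (95% interval 1.17 to 1.49) and a log2 fold change of 0.40 ± 0.08 (adjusted p = 0.0859, edgeR). After the offset it was 0.28 ± 0.08 (adjusted p = 0.232), and without Flox mice 4 and 6, with fewer mice, it was 0.44 (adjusted p = 0.340). Psma5 has processed pseudogenes in the annotation, among them Gm8394, 98.6% identical over 952 bases, and the treatment of reads that map to both is not given in the sources used here.

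Psma3, another alpha subunit of the gate ring, had 143, 110.2, 137, 113 and 134 CPM in EpithelialKO mice, against 114, 114, 98.9, 110.0 and 105 CPM in Flox mice. EpithelialKO mice 17, 20 and 22 were above every Flox mouse, and mice 18 and 21 lay within the Flox range. The log2 fold change was 0.23 ± 0.09 (adjusted p = 0.314, edgeR), and 0.14 after the offset. Psma7 had the smallest log2 fold change of the core, with 161, 136, 165, 137 and 171 CPM in EpithelialKO mice, against 133, 160.4, 137, 165 and 144 CPM in Flox mice. Its groups overlapped widely, at 0.06 ± 0.10 (adjusted p = 0.850, edgeR), and the sign turned to -0.07 after the offset.

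The other 4 alpha genes lay between these. Psma1 averaged 121 ± 13.8 CPM in EpithelialKO and 105 ± 9.16 CPM in Flox mice (log2 fold change 0.21 ± 0.10), with 3 EpithelialKO mice above all Flox mice. Psma6 averaged 131 ± 8.34 CPM in EpithelialKO and 117 ± 9.92 CPM in Flox mice (0.16 ± 0.09), also with 3 mice above. Psma2 and Psma4 had log2 fold changes of 0.11 ± 0.09 and 0.13 ± 0.11, and both were at or under 0 after the offset (-0.00018 and -0.024).

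The beta subunits Psmb5, Psmb6 and Psmb7 carry the proteolytic sites, and none was separated between the groups. Psmb5, the chymotrypsin-like subunit, had 99.8, 93.7, 107, 86.0 and 90.3 CPM in EpithelialKO mice, against 86.3, 90.2, 78.1, 104 and 81.6 CPM in Flox mice. Flox mouse 5 was the second highest of all 10 mice, and the log2 fold change was 0.11 ± 0.10 (adjusted p = 0.674, edgeR). Psmb6, the caspase-like subunit, had 167, 151, 179.6, 136 and 178 CPM in EpithelialKO mice, against 155, 157, 137, 146 and 142 CPM in Flox mice. Mice 17, 20 and 22 exceeded all Flox mice and mouse 21 was the lowest of the 10; the log2 fold change was 0.14 ± 0.09 (adjusted p = 0.573, edgeR). Psmb7, the trypsin-like subunit, had 123, 111, 123, 108 and 131 CPM in EpithelialKO mice, against 119.8, 116, 104, 89.1 and 99.7 CPM in Flox mice. Mice 17, 20 and 22 again lay above the Flox range, at a log2 fold change of 0.17 ± 0.10 (adjusted p = 0.497, edgeR). After the offset these 3 genes had values of 0.03, 0.03 and 0.04.

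The structural beta subunits included the largest fold changes of the ring. Psmb3 had 136, 113, 136, 109 and 144 CPM in EpithelialKO mice, against 106, 111, 106, 102 and 99.1 CPM in Flox mice. Every EpithelialKO mouse except mouse 21 was above the Flox range, and mouse 21 fell inside it. Its log2 fold change was 0.28 ± 0.09 (adjusted p = 0.229, edgeR), and 0.15 after the offset. Psmb2 averaged 66.0 ± 2.46 CPM in EpithelialKO and 57.6 ± 4.61 CPM in Flox mice (log2 fold change 0.20 ± 0.09), with 4 of 5 EpithelialKO mice above all Flox mice. Psmb1, the most counted of the 34 genes, averaged 242 ± 26.6 CPM in EpithelialKO and 209 ± 20.0 CPM in Flox mice (0.21 ± 0.10). Psmb4 averaged 206 ± 19.9 CPM in EpithelialKO and 190.01 ± 18.7 CPM in Flox mice (0.11 ± 0.10).

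In the base of the regulatory particle, the ATPases that unfold substrates had a median log2 fold change of 0.12 over 6 genes. Psmc6 had 61.3, 56.8, 65.8, 67.7 and 86.6 CPM in EpithelialKO mice, against 64.6, 53.9, 53.9, 47.3 and 55.3 CPM in Flox mice. EpithelialKO mouse 22 was the highest of all, mice 20 and 21 were also above the Flox range, and mice 17 and 18 were within it. The log2 fold change was 0.30 ± 0.12 (adjusted p = 0.306, edgeR), and 0.14 after the offset. Psmc2 had 0.20 ± 0.13 and Psmc4 0.13 ± 0.08, and Psmc4 lay above all Flox mice in 4 of 5 EpithelialKO mice. Psmc3 had 0.10 ± 0.09, Psmc1 0.07 ± 0.09 and Psmc5 0.06 ± 0.09, and of these Psmc1 and Psmc5 were below 0 after the offset.

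The scaffold and receptor subunits of the base had the lowest median of any subgroup, 0.04 over 3 genes. Psmd1 and Psmd2, the large scaffolds on which the base is built, had log2 fold changes of 0.01 ± 0.08 and 0.04 ± 0.08. Psmd4, a ubiquitin receptor, had 0.13 ± 0.10 and lay above all Flox mice in 4 of 5 EpithelialKO mice. Psmd1 averaged 125 ± 8.88 CPM in EpithelialKO and 124 ± 3.66 CPM in Flox mice, a difference smaller than either SD.

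The lid had a median of 0.09 over 8 genes, and none reached an unadjusted p of 0.05. Psmd14, the deubiquitinase that cleaves chains from substrates, averaged 58.6 ± 7.32 CPM in EpithelialKO and 54.1 ± 5.28 CPM in Flox mice (log2 fold change 0.11 ± 0.11). Psmd7, its partner in the lid, averaged 119 ± 3.09 CPM in EpithelialKO and 109 ± 6.55 CPM in Flox mice (0.13 ± 0.08), with 4 of 5 EpithelialKO mice above all Flox mice. The scaffold subunits Psmd8, Psmd11, Psmd6, Psmd12 and Psmd3 had 0.16 ± 0.08, 0.16 ± 0.12, 0.08 ± 0.10, 0.07 ± 0.09 and 0.04 ± 0.10. Psmd13 had 131, 96.0, 124, 92.4 and 109 CPM in EpithelialKO mice, against 95.5, 112, 97.3, 143 and 101 CPM in Flox mice. Its highest value was in Flox mouse 5, and its log2 fold change of 0.01 ± 0.13 (adjusted p = 0.991, edgeR) was the smallest of the 34. Psmd13 shares 329 exon bases with Sirt3 on the opposite strand, and how counting treated strand is not given in the labels.

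The base assembly chaperones had the highest median of any subgroup, 0.29 over 3 genes. Psmd5 had 46.2, 50.5, 65.5, 51.0 and 50.8 CPM in EpithelialKO mice, against 46.4, 42.4, 42.9, 36.3 and 48.4 CPM in Flox mice. Mouse 20 was highest, mouse 17 was inside the Flox range, and the log2 fold change was 0.29 ± 0.11 (adjusted p = 0.304, edgeR). Psmd9 had 46.3, 32.5, 43.0, 32.2 and 29.3 CPM in EpithelialKO mice, against 26.8, 30.2, 28.1, 34.5 and 29.4 CPM in Flox mice. Mice 17 and 20 were above the Flox range and the other 3 were within it, at 0.30 ± 0.14 (adjusted p = 0.384, edgeR). With the offset both kept 0.30. Psmd9 shares 1849 exon bases with the noncoding RNA gene Gm26745 on the opposite strand. Psmd10, known as gankyrin, averaged 30.0 ± 2.48 CPM in EpithelialKO and 27.6 ± 4.81 CPM in Flox mice (0.12 ± 0.13; -0.03 after the offset).

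The core and regulatory particles were compared within each mouse by their mean log2 CPM. The core level was 7.08, 6.87, 7.08, 6.86 and 7.10 in EpithelialKO mice, against 6.79, 6.91, 6.73, 6.90 and 6.76 in Flox mice. EpithelialKO mice 17, 20 and 22 lay above all Flox mice, while mice 18 and 21 fell below Flox mice 3 and 5. The group means were 6.999 ± 0.12 in EpithelialKO and 6.82 ± 0.08 in Flox mice, a difference of 0.18 on the log2 scale.

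The regulatory level was 6.44, 6.38, 6.49, 6.39 and 6.49 in EpithelialKO mice, against 6.35, 6.36, 6.26, 6.33 and 6.29 in Flox mice. The groups did not overlap, although the gap between the lowest EpithelialKO and the highest Flox mouse was small. The means were 6.44 ± 0.05 in EpithelialKO and 6.32 ± 0.04 in Flox mice, a difference of 0.12. Leaving out the 3 assembly chaperones, 4 of 5 EpithelialKO mice lay above all Flox mice. With all 20 genes and the offset, 2 of 5 did.

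**Figure D2:**
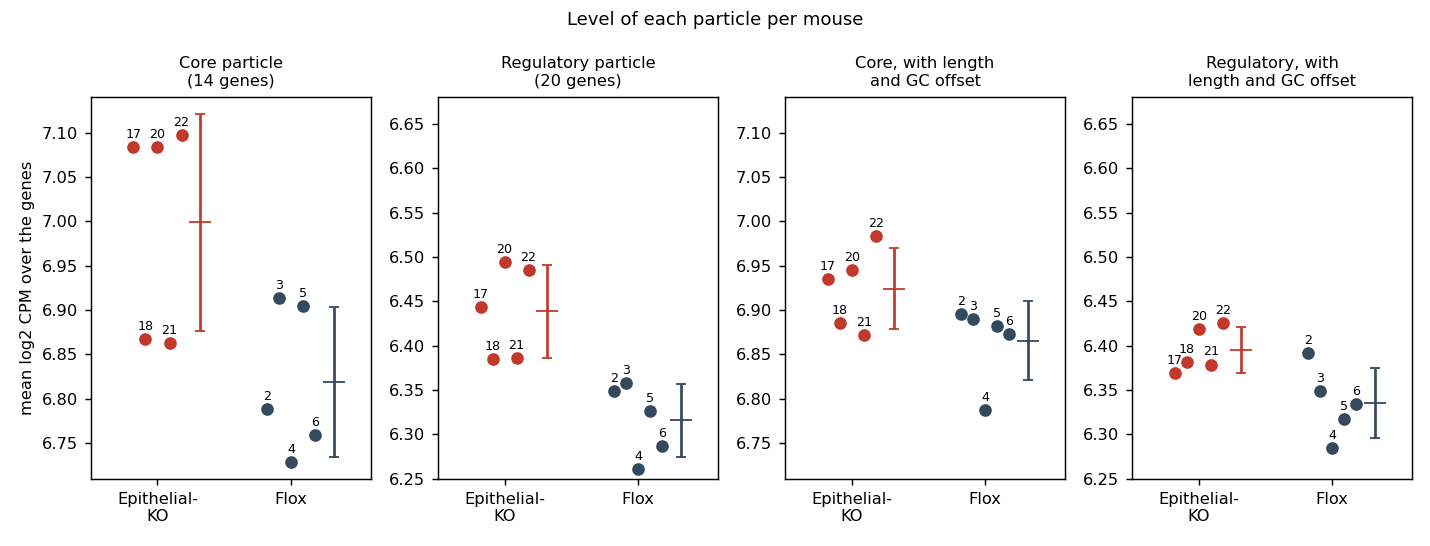
Mean log2 CPM of the 14 core and 20 regulatory genes in each mouse, before and after the length and GC offset, with numbered points for mice and bars for the mean and SD of each group. Before the offset the regulatory level separates the groups and the core level does not, and after it the groups overlap for both.

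Core minus regulatory was 0.64, 0.48, 0.59, 0.48 and 0.61 in EpithelialKO mice, against 0.44, 0.56, 0.47, 0.58 and 0.47 in Flox mice. The 2 genotypes overlapped, since EpithelialKO mice 18 and 21 lay below Flox mice 3 and 5. The means were 0.56 ± 0.08 in EpithelialKO and 0.50 ± 0.06 in Flox mice, and their difference of 0.06 was smaller than the SD of EpithelialKO mice. After the offset the difference was -0.00098. A larger difference in the core than in the regulatory particle was not detectable with these mice.

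Core levels and the fitted length and GC term of each library were high in the same mice. That term was fitted to each mouse's own log2 CPM values over 14763 genes, the proteasome genes included. It is therefore not a measure independent of the core level, and some agreement is built in. For core genes this term was 0.15, -0.02, 0.14, -0.01 and 0.11 in EpithelialKO mice, against -0.11, 0.02, -0.06, 0.02 and -0.11 in Flox mice. EpithelialKO mice 17, 20 and 22 had the highest terms and the highest core levels. After the offset the core level was 6.92 ± 0.05 in EpithelialKO and 6.87 ± 0.04 in Flox mice, and the regulatory level 6.39 ± 0.03 in EpithelialKO and 6.34 ± 0.04 in Flox mice, a difference of 0.06 for each. What this term reflects was not tested.

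Core genes were largely high or low in the same mice, and regulatory genes less so. EpithelialKO mice had 25, 16, 31, 14 and 30 of the 34 genes above the median of all 10 mice, against 11, 21, 2, 16 and 4 in Flox mice. Among core genes alone, all 14 were above that median in EpithelialKO mice 17, 20 and 22, and 0 were in Flox mice 4 and 6. EpithelialKO mice 18 and 21 had 4 and 3 core genes above it, fewer than Flox mice 3 and 5 with 12 and 6. Of the 20 regulatory genes, 11, 12, 17, 11 and 16 were above that median in EpithelialKO mice, against 8, 9, 2, 10 and 4 in Flox mice.

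**Figure D3:**
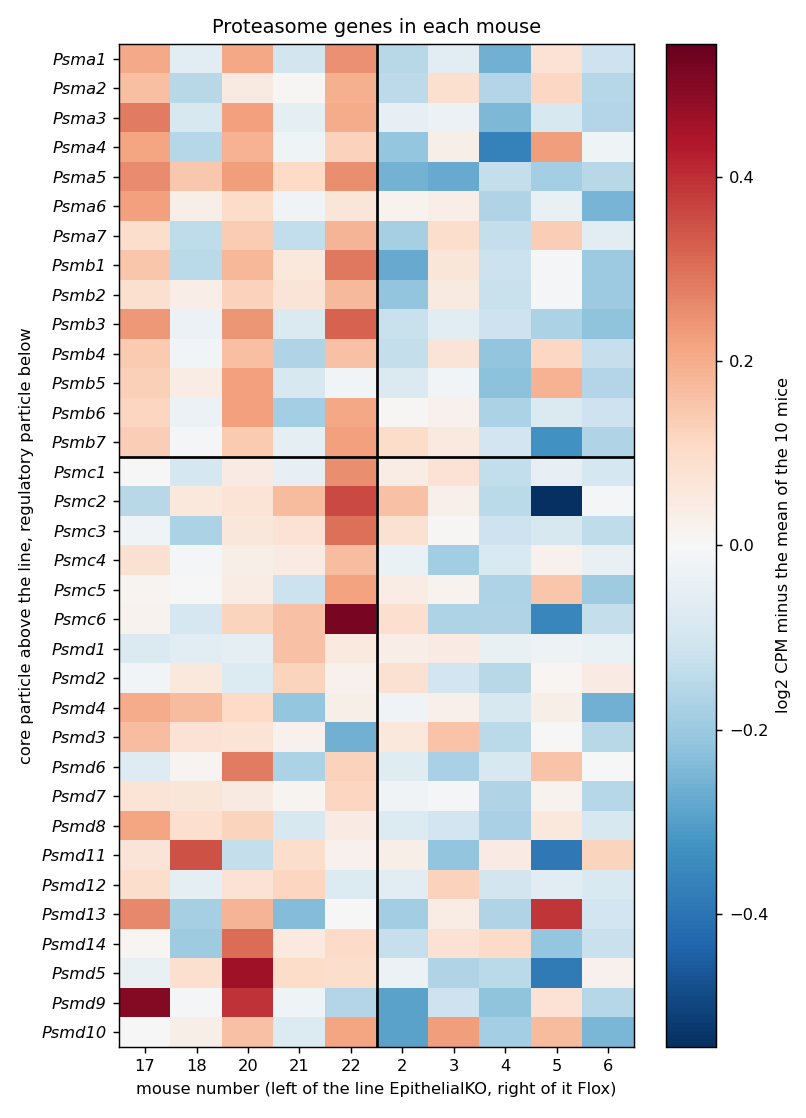
Deviation of each gene's log2 CPM from its mean over the 10 mice, with genes in rows by subgroup and mice in columns, EpithelialKO left of Flox. Columns of EpithelialKO mice 17, 20 and 22 are high across most of the core, and Flox mice 4 and 6 are low across most of the 34 genes.

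Levels between genes were compared per kilobase of transcript. Core genes had a median of 105.0 CPM per kilobase in EpithelialKO and 96.5 in Flox mice, and regulatory genes 45.0 in EpithelialKO and 43.6 in Flox mice. Psmb6 was highest, at 203 ± 23.7 in EpithelialKO and 184 ± 10.6 in Flox mice. Psma7, Psmb4 and Psmb3 came next, and 7 of the 10 highest genes were core genes. The lowest was Psmd5, at 12.01 ± 1.68 in EpithelialKO and 9.84 ± 1.05 in Flox mice, followed by its fellow chaperone Psmd9, at 14.1 ± 2.89 in EpithelialKO and 11.5 ± 1.14 in Flox mice. The order in both particles depended on the length used. Per kilobase of coding sequence Psmb1 was the highest, and Psma2 was ranked 4 in place of 21. Psmd9 was ranked 29 in place of 33, and Psmd5 stayed the lowest.

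**Figure D4:**
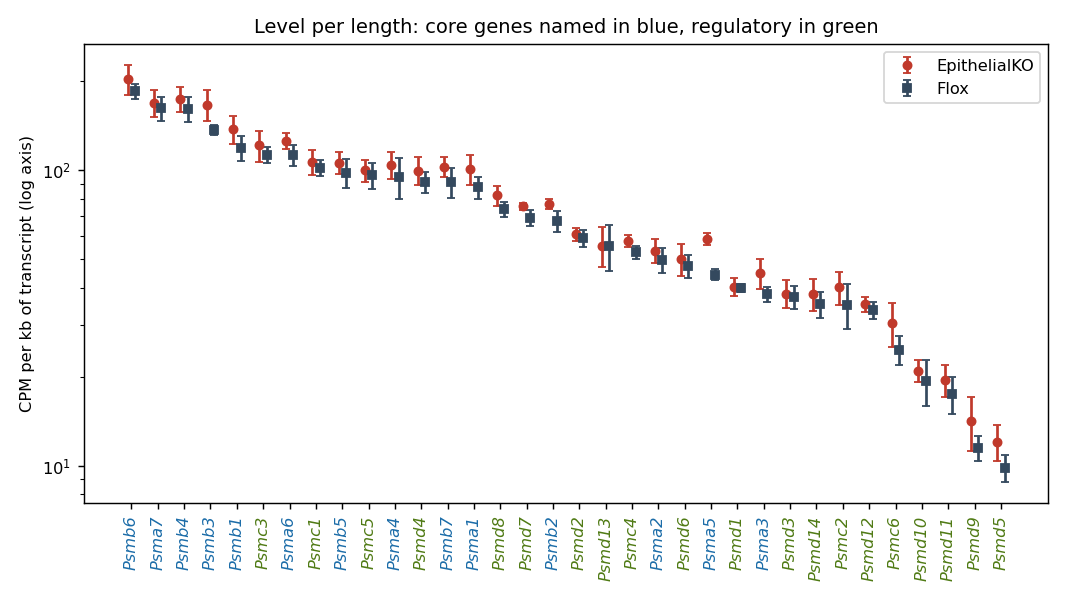
CPM per kilobase of transcript for each of the 34 genes on a log axis, mean and SD of EpithelialKO and of Flox mice, ordered by level. Core genes fill most of the upper end, with Psmb6 highest, and the assembly chaperones Psmd5 and Psmd9 are lowest in both groups.

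Near-identical copies at another locus could blur 8 of the 34 genes, which had a match of at least 95% identity over at least 100 bases in another annotated transcript. In the core these were Psma3, Psma4, Psma5, Psmb3 and Psmb5, and in the regulatory particle Psmc1, Psmd2 and Psmd11. Exon bases were shared with another gene by 9 of the 34, among them Psmb7 with Nek6 (253 bases) and Psmc3 with Slc39a13 (147 bases), both on opposite strands.

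The immunoproteasome replaces the catalytic subunits of the core with inducible ones, and its genes leaned the other way without passing the threshold. Psmb8, which takes the place of Psmb5, averaged 115 ± 19.8 CPM in EpithelialKO and 130.1 ± 20.6 CPM in Flox mice (log2 fold change -0.18 ± 0.13). Psmb9, which replaces Psmb6, had -0.17 ± 0.14, and Psmb10, which replaces Psmb7, had -0.19 ± 0.11. The cap genes Psme1 and Psme2 had 0.07 ± 0.10 and -0.11 ± 0.11, so 4 of 5 were negative, with adjusted p from 0.511 to 0.839 (edgeR). The mean log2 difference of the 3 constitutive from the 3 inducible catalytic genes was 0.37 to 0.79 in EpithelialKO and 0.02 to 0.47 in Flox mice. These ranges overlapped, and after the offset they were 0.31 to 0.72 in EpithelialKO and 0.01 to 0.53 in Flox mice. The testis subunit Psma8 averaged 0.605 ± 0.457 CPM in EpithelialKO and 0.798 ± 0.585 CPM in Flox mice. The thymus subunit Psmb11 had 0 counts in all 10 mice, which allows up to 0.200 CPM per library at a floor of 3 counts.

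Of 43 other pathway genes in the table, the immunoproteasome included, 41 were tested and 0 passed the adjusted threshold with edgeR, DESeq2 or limma-voom. In edgeR, at an unadjusted p under 0.05, 1 (Usp14) was higher and 0 were lower. The shares over all 15301 genes were 5.87% higher and 6.52% lower at that p, and 50.1% with a positive fold change. Chaperones that assemble the core, with Akirin2 as its nuclear import factor, were positive in 6 of 6, with a median of 0.16. Among them Psmg2 had 0.27 ± 0.18, Akirin2 0.23 ± 0.15, Psmg1 0.20 ± 0.17 and the maturation factor Pomp 0.11 ± 0.12. Accessory subunits and activators were positive in 7 of 9. The deubiquitinases of the regulatory particle, Usp14 and Uchl5, had 0.23 ± 0.10 (adjusted p = 0.358, edgeR) and 0.19 ± 0.11, the inhibitor Psmf1 had 0.14 ± 0.11 and the nuclear activator Psme3 had 0.11 ± 0.10.

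Genes for the transcription factors that act on proteasome promoters, and for the enzymes that process them, did not lean the same way. Of 9, 3 were positive, with a median of -0.08. Nfe2l1 averaged 353 ± 67.5 CPM in EpithelialKO and 389.9 ± 51.6 CPM in Flox mice (-0.14 ± 0.13), and Ddi2, the protease that activates NRF1, had -0.35 ± 0.25. Nfe2l2, which encodes NRF2, had 0.19 ± 0.11 and Nfya, a subunit of NF-Y, -0.21 ± 0.13. NRF1 is controlled by cleavage of its protein, which RNA counts do not measure.

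Shuttle factors and cofactors of the p97 segregase, which deliver substrates, were positive in 10 of 11 tested genes with a median of 0.06. Ufd1 had 0.11 ± 0.09, Ubqln4 0.11 ± 0.11, Ubqln1 0.09 ± 0.10 and Rad23b 0.08 ± 0.08.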

How the data were processed

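Whole-lung RNA was extracted with Trizol, poly(A) RNA was captured on oligo(dT) beads, fragmented and copied from random hexamers, per the labels' protocols. The submitters' processing notes list cutadapt (a read trimmer), HISAT2 (an aligner) and GRCm38, without versions. The authors deposited whole-number counts per Entrez gene, 1 column per mouse, unnormalized; which counter, annotation and strand setting they used is not given in the sources used here. Of 27179 rows, 25275 matched a RefSeq symbol. No 2 mice agreed within counting noise (lowest chi-square per degree of freedom 17.8).

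Counts were filtered (filterByExpr), TMM-scaled and tested over 15301 genes with edgeR 4.0.16 (quasi-likelihood F test, robust, R 4.3.3), calling adjusted p (Benjamini-Hochberg) under 0.05. Particle levels are means of log2 CPM with a prior count of 2. Alternatives used DESeq2 1.42.0, limma 3.58.1 (voom), sva 3.50.0, other scalings and left-out mice. Added after seeing the data were an offset per mouse (loess on the length and GC content of GENCODE transcripts, for 96.5% of tested genes) and levels per kilobase of coding sequence. The loess was fitted to each mouse's log2 CPM minus the mean of the 10 mice. Near copies were found with blastn 2.17.0. The fits were tested on simulated data.

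The 34 genes and all lists were chosen with earlier results of these data known. All 34 are named; values of every mouse are given for the catalytic subunits, for the 3 lowest p-values and the largest and smallest fold change in each particle, and for separated genes. Of other lists, up to 4 genes with the lowest p were named. Other genes named were chosen after their values were seen. A further list is not reported here.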

Additional observations from a re-analysis of the deposited data

Results flagged for a closer look

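Among 74 groups of 5 mice checked for a value far from the others, 2 were marked, and chance marks about 5% of groups. Psmd5 was 65.5 CPM in EpithelialKO mouse 20, whereas the other EpithelialKO mice had 46.2 to 51.0 CPM. Psmd12, a lid subunit, was 71.3 CPM in Flox mouse 3, whereas the other Flox mice had 60.9 to 62.8 CPM.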

How the results depend on the processing

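Over all genes, 6 passed the adjusted threshold. The count was 279 with the DESeq2 Wald test, 32 with limma-voom, 34 without a filter, 49 with 1 surrogate variable, 0 without Flox mice 4 and 6 (edgeR; 1207 at an unadjusted p under 0.05), 0 with the length and GC offset (edgeR; 1549 unadjusted) and 0 to 48 when a mouse was left out, 48 without Flox mouse 5. Members passing it numbered 0, except 1, Psma5, with the DESeq2 Wald test (adjusted p = 0.00253) and with 1 surrogate variable (adjusted p = 0.0459); over all alternatives the adjusted p of Psma5 reached 0.340, without Flox mice 4 and 6, where its log2 fold change was 0.44.

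With the offset the core median was 0.036, the regulatory median 0.059 and 12 regulatory genes were positive; without Flox mice 4 and 6 the regulatory median was 0.062. Of 612 alternatives over the 34 genes, 587 kept direction and side of the threshold, 23 reversed and 2 were stronger; 22 genes never reversed. With the offset the negative values were Psma2 -0.00018, Psma4 -0.024, Psma7 -0.067, Psmc1 -0.025, Psmc5 -0.030, Psmd1 -0.017, Psmd6 -0.048, Psmd10 -0.027, Psmd12 -0.042, Psmd13 -0.018 and Psmd14 -0.030. Without Flox mice 4 and 6 they were Psmc5 -0.034, Psmd1 -0.010, Psmd3 -0.047 and Psmd13 -0.079, and with 1 surrogate variable Psmd13 -0.018. With each mouse left out in turn, Psmd1 ranged from -0.028 to 0.033, Psmd3 from -0.0028 to 0.10 and Psmd13 from -0.060 to 0.12. Core minus regulatory differed between the genotypes by -0.00098 to 0.078 over its alternatives. The cause of these shifts was not tested.

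No paired analysis was possible because EpithelialKO and Flox mice share no number. Each of the 34 genes had at least 462 counts in a mouse, and with 5 mice a group the spread between mice limits these comparisons.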
